A study of Canis lupus familiaris with 20 samples.

Results

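ENSCAFG00000019945 on chromosome 9 and ENSCAFG00000019177 on chromosome 5, 2 of the 24580 genes of the deposited table, lay close to silence in vertebral cartilage of control dogs and were expressed in dogs with mucopolysaccharidosis VII (MPS VII). They were chosen by identifier, on the ground that both stood under 2 CPM in control groups, where CPM is the read count scaled to the size of the library. Their low level in controls and their higher level in affected dogs are therefore what chose them, and the values of that contrast are given below as a description without a test. The table does not pair identifiers with gene names, and 0 of its identifiers matched the symbol table at hand, so the genes are called here by chromosome.

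Dogs and people with MPS VII lack the lysosomal enzyme beta-glucuronidase, the product of GUSB. Glycosaminoglycans, the sugar chains of cartilage matrix, are then not fully broken down and accumulate in lysosomes of chondrocytes and other cells. In the vertebral epiphysis, cartilage is normally replaced by bone from a secondary centre of ossification, and this step is known to be delayed or to fail in MPS VII.

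RNA was sequenced from epiphyseal cartilage beside the growth plate of the T12 vertebra of 20 dogs, 1 library per dog, with tissue of both ends of the vertebra pooled. The 4 groups of 5 were control dogs at postnatal day 9, MPS VII dogs at day 9, control dogs at day 14 and MPS VII dogs at day 14. MPS VII dogs were homozygous for a natural missense change in GUSB. Controls were heterozygous, so that every animal carried the change on at least 1 allele. Libraries held 15772761 to 28028365 counts. The level of GUSB and markers of cartilage could not be checked against the labels, because identifiers carry no names. Sex and litter were not used here. The library of MPS VII day 9 replicate 3 stood apart from its group in many genes, as described below, and results that rest on it are given with and without it.

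The chromosome 9 gene lies on the minus strand of the dog genome CanFam3.1, on chromosome 9 from 53425168 to 53472725. Its model has 15 exons with 1629 bases in all, of 31 to 369 bases each, spread over 47.6 kb, so that exons make up 3.43% of its length. Its last 3.89 kb lie within the span of another gene on the same strand, from 53262958 to 53429057, but the exons of both share 0 bases. The chromosome 5 gene lies on the plus strand of chromosome 5 from 55782140 to 55828330, a span of 46.2 kb. Its 11 exons hold 5611 bases, and 70.2% of them are in its last exon of 3941 bases. Its first 4.66 kb lie across from a gene on the opposite strand, from 55717232 to 55786797, again with 0 exon bases in common. The next gene downstream, from 55831596 to 55972118, points towards it from the minus strand and ends 3.27 kb beyond its 3′ end, so that both genes are convergent. The counting was not stated to use strand, and values of genes on opposite strands are less certain for that reason.

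**Figure D1:**
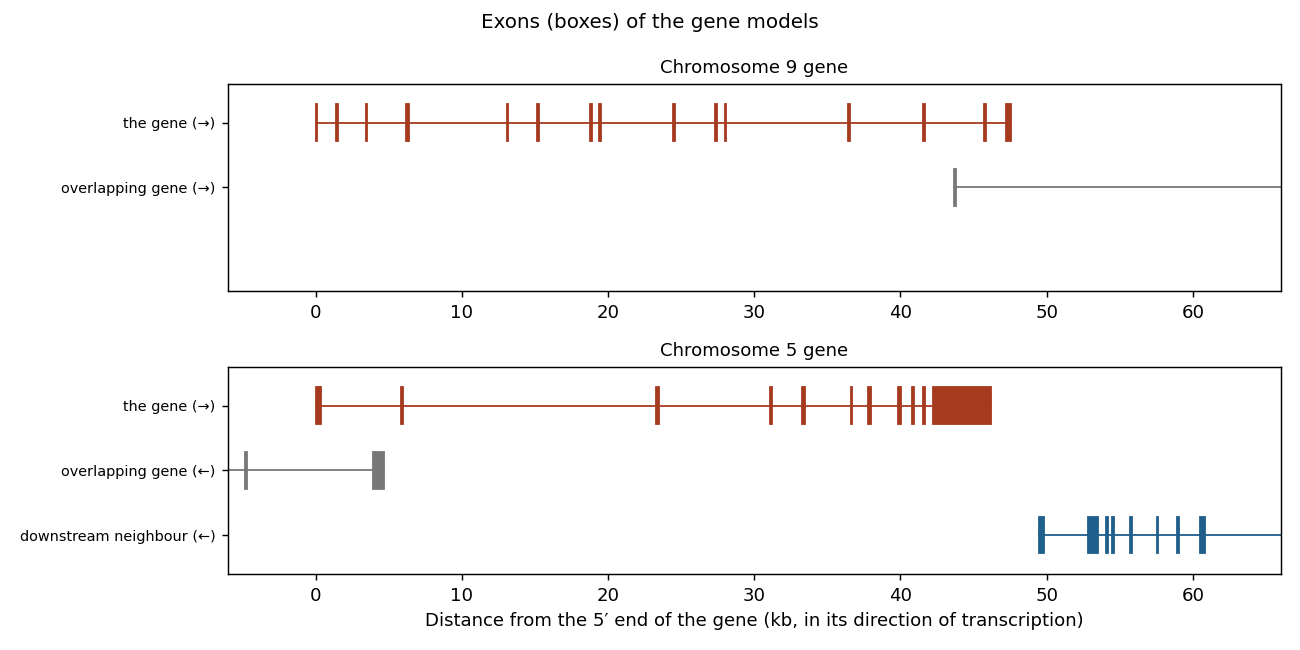
Gene models of the chromosome 9 gene (top) and the chromosome 5 gene (bottom), as distance in kb from the 5′ end of each gene along its direction of transcription. Boxes are exons, lines join them, and arrows give the strand relative to the gene. The overlapping genes, and the downstream neighbour of the chromosome 5 gene, run beyond the drawn window, and no box of an overlapping gene lies on an exon of the gene above it.

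In control dogs of day 9 the chromosome 9 gene held 16, 14, 22, 8 and 26 counts in replicates 1 to 5, which came to 0.558, 0.598, 0.969, 0.464 and 1.16 CPM. In control dogs of day 14 it held 20, 6, 6, 0 and 26 counts, or 0.806, 0.288, 0.340, 0 and 1.12 CPM. Of the day 14 controls, 2 lay within the range of day 9 and 3 below it. The 0 of day 14 replicate 4 allows a level of up to 0.141 CPM (3 counts, counting error only) if each count is a separate fragment. The limit is higher if both mates of a pair were counted. In MPS VII dogs of day 9 the gene stood at 19.3, 14.9, 298, 20.1 and 28.7 CPM in replicates 1 to 5. In MPS VII dogs of day 14 it stood at 11.98, 16.3, 8.59, 54.8 and 14.8 CPM. All affected libraries lay above all control libraries at both ages, and 1 library at each age stood high above the rest of its group. The lowest affected library was 12.8 times the highest control library at day 9 and 7.65 times at day 14.

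In control dogs of day 9 the chromosome 5 gene held 24, 26, 34, 38 and 14 counts, or 0.837, 1.11, 1.5, 2.20 and 0.627 CPM. Replicate 4 was thus the 1 control library above 2 CPM, while the mean of its group was 1.25 CPM ± 0.622 (SD, n = 5). In control dogs of day 14 it held 10, 16, 4, 6 and 8 counts, or 0.403, 0.769, 0.227, 0.281 and 0.346 CPM. In MPS VII dogs it stood at 17.7, 10.3, 23.0, 13.8 and 9.47 CPM at day 9. At day 14 the affected libraries held 19.2, 23.3, 11.2, 24.5 and 12.3 CPM. Again the genotypes did not overlap at either age, and no affected library stood far from the others. The lowest affected library was 4.30 times the highest control at day 9 and 14.6 times at day 14.

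**Figure D2:**
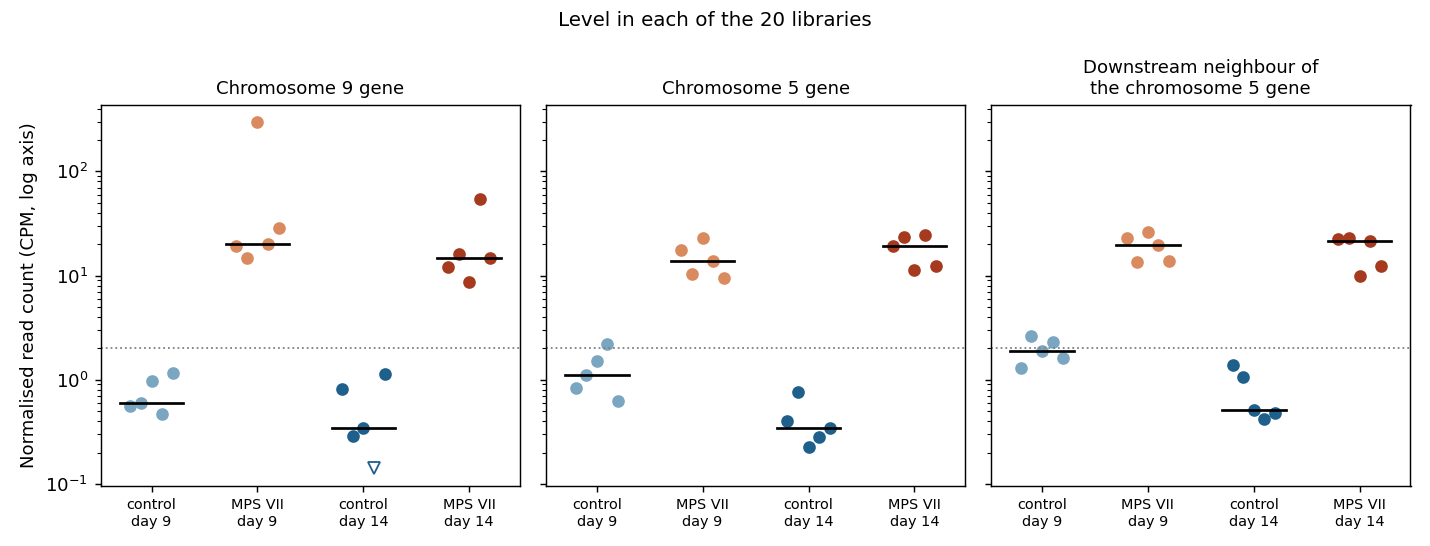
Level in CPM (log axis) of the chromosome 9 gene, the chromosome 5 gene and its downstream neighbour in the 20 libraries. Points are libraries, bars are group medians, and the dotted line marks 2 CPM. The open triangle is the library with 0 counts, drawn at 0.141 CPM, the limit if each count is a separate fragment. Affected libraries lie above control libraries in each panel, and the chromosome 9 gene reaches 298 CPM in 1 affected library of day 9 and 54.8 CPM in 1 of day 14.

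Controls were close to silence but not at 0. Over the 5 libraries of a group, the chromosome 9 gene had 86 counts at day 9 and 58 at day 14, and the chromosome 5 gene 136 and 44. Of the 40 counts of both genes 33 were even, and in each library 65.2% to 76.4% of all counts above 0 and under 200 were even, as they would be if both mates of a pair were counted. Low control counts may therefore stand for fewer fragments than their number. Bulk tissue was measured, so a higher level cannot be told apart from more cells of a type that expresses the gene.

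On the log2 scale, the fitted difference of MPS VII against control for the chromosome 9 gene was 6.65 ± 0.98 (SE) at day 9 and 5.31 ± 0.99 at day 14. Without MPS VII day 9 replicate 3 the day 9 value was 4.77 ± 0.60, and without MPS VII day 14 replicate 4 the day 14 value was 4.60. For the chromosome 5 gene the differences were 3.59 ± 0.34 at day 9 and 5.45 ± 0.39 at day 14. The medians over all 14550 tested genes were 0.02 and 0.03. For the 2 genes, all affected libraries lay above all controls at both ages. Over all tested genes this was so for 5.26% at day 9 and 9.27% at day 14, and since the genes were chosen on this contrast nothing is read from their count.

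Per kilobase of exon, which allows levels to be compared between genes, the medians of the chromosome 9 gene were 0.367 and 0.209 CPM per kb in controls of day 9 and day 14. In affected dogs they were 12.4 and 9.11 CPM per kb. By its group median the gene stood above 9.08% and 4.75% of tested genes in controls, and above 71.8% and 63.8% in affected dogs. The chromosome 5 gene was lower at every stage, with medians of 0.198 and 0.0616 CPM per kb in controls and 2.46 and 3.43 CPM per kb in affected dogs. It stood above 5.48% and 0.928% of tested genes in controls, and above 31.1% and 38.0% in affected dogs. In these terms the chromosome 9 gene went from the low end to above the middle of the range of tested genes, and the chromosome 5 gene from the lowest levels to below the middle.

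The genes differed in how much they varied between affected dogs. The coefficient of variation of the chromosome 9 gene was 163% in MPS VII dogs of day 9 and 89.0% at day 14, more than in 99.7% and 98.1% of tested genes. Replicate 3 of day 9 alone gave 80.4% of the group's counts, and replicate 4 of day 14 gave 49.3%. Without replicate 3 the affected dogs of day 9 stood at 20.8 CPM ± 5.77 (SD, n = 4), a coefficient of 27.8%. Without replicate 4 those of day 14 stood at 12.9 CPM ± 3.39 (SD, n = 4), a coefficient of 26.3%. For the chromosome 5 gene the coefficients with all libraries were 37.6% and 33.8%, and the highest affected library was 2.42 times the lowest at day 9 and 2.18 times at day 14.

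The choice of the genes did not compare day 9 with day 14. It did rest on their levels in both genotypes, so the tests of change with age are not fully apart from it. In MPS VII dogs the level of neither gene passed the test, where 22.7% of tested genes did. The chromosome 5 gene went from 14.8 CPM ± 5.58 to 18.1 CPM ± 6.11 (SD, n = 5 each), and the ages overlapped. Its log2 fold change was 0.29 ± 0.29 (SE, adjusted p = 0.495; edgeR quasi-likelihood test, adjusted after Benjamini and Hochberg over all tested genes). The chromosome 9 gene went from 76.2 CPM ± 124 to 21.3 CPM ± 19.0, and its log2 fold change was -1.84 ± 0.74 (edgeR adjusted p = 0.0763). That value rested on single libraries. Without MPS VII day 9 replicate 3 it was 0.06 ± 0.48 (edgeR adjusted p = 0.947), and without MPS VII day 14 replicate 4 it was -2.49 ± 0.77 and passed the threshold (edgeR adjusted p = 0.0289). It also passed without MPS VII day 9 replicate 2 (edgeR adjusted p = 0.0407) or replicate 4 (edgeR adjusted p = 0.0489).

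In control dogs the chromosome 5 gene fell further with age, although the way it was chosen had capped its level at both ages, so that this test is not fully apart from the choice. It went from 1.25 CPM ± 0.622 at day 9 to 0.405 CPM ± 0.214 at day 14 (SD, n = 5 each), and the groups overlapped in the highest library of day 14 and the lowest of day 9. The log2 fold change was -1.58 ± 0.42 (SE, edgeR adjusted p = 0.00519), and 42.5% of tested genes passed this test. It passed in each of the 10 fits that left out 1 control library. The chromosome 9 gene stood at 0.7505 CPM ± 0.301 and 0.512 CPM ± 0.448, with no call (log2 fold change -0.50 ± 1.22, edgeR adjusted p = 0.767). That error comes from a spread estimated over all 4 groups, affected dogs included. With only the control groups in the fit the value was -0.50 ± 0.60, again with no call (edgeR adjusted p = 0.496).

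The difference of the age change, MPS VII against control, is the gap between genotypes at day 14 less that at day 9, so it is built from the values that chose the genes and is given without a test. It was 1.86 ± 0.51 on the log2 scale (SE) for the chromosome 5 gene, and ran from 1.59 to 2.22 when 1 library was left out. For the chromosome 9 gene it was -1.34 ± 1.44, and 0.54 ± 0.90 without MPS VII day 9 replicate 3.

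Whether the genes next to both genes differed between genotypes was asked of the 5 tested genes on either side, which their choice did not use. The convergent neighbour of the chromosome 5 gene was higher in affected dogs at both ages. Like the 2 chosen genes it was under 2 CPM in both control groups by its means, at 1.95 CPM at day 9 and 0.767 CPM at day 14. In controls of day 9 it stood at 1.29, 2.65, 1.89, 2.32 and 1.61 CPM in replicates 1 to 5, and in controls of day 14 at 1.37, 1.06, 0.510, 0.422 and 0.476 CPM. In MPS VII dogs it stood at 23.1, 13.4, 26.4, 19.5 and 13.9 CPM at day 9, and at 22.5, 23.2, 9.82, 21.3 and 12.3 CPM at day 14. All affected libraries lay above all control libraries at both ages. The log2 fold change was 3.31 ± 0.31 at day 9 (SE, edgeR adjusted p = 4.38e-07) and 4.51 ± 0.35 at day 14 (edgeR adjusted p = 1.51e-08), and both calls held in each fit that left out 1 library.

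The neighbour also resembled the chromosome 5 gene in its change with age. In controls it fell by 1.31 ± 0.35 on the log2 scale from day 9 to day 14 (SE, edgeR adjusted p = 0.00556). In MPS VII dogs its change was -0.11 ± 0.27 (edgeR adjusted p = 0.800), and the difference of the age change was 1.20 ± 0.45 (edgeR adjusted p = 0.146), in a test that 3.26% of tested genes passed. Its CPM divided by that of the chromosome 5 gene ran from 1.15 to 1.47 in affected dogs of day 9 and from 0.870 to 1.17 in those of day 14. In controls, where both rest on few counts, the ratio ran from 1.05 to 2.57 at day 9 and from 1.38 to 3.40 at day 14. The ratio was above 1 in 5 of 5 affected libraries of day 9 and in 1 of 5 of day 14. The chromosome 5 gene has 5611 bases of exon and its neighbour 2176, and per kilobase the neighbour stood at medians of 8.97 and 9.79 CPM per kb in affected dogs of day 9 and day 14. Since the use of strand in the counting is not stated, reads that cross from one 3′ end to the other were not told apart, and their part in these values was not tested.

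**Figure D3:**
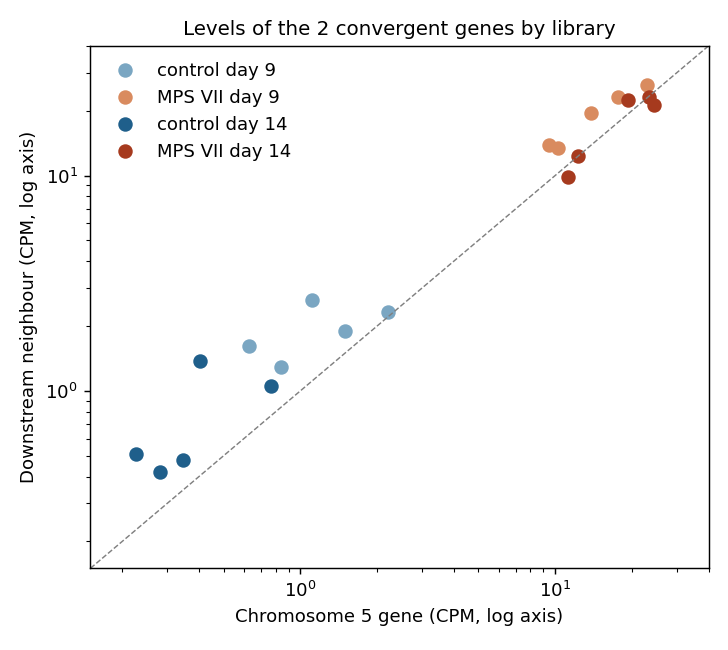
CPM of the chromosome 5 gene (horizontal, log axis) against CPM of its downstream neighbour (vertical, log axis), 1 point per library, coloured by group, with the dashed line at equal levels. Affected libraries lie at 9.47 to 24.5 CPM on the horizontal axis and controls at 0.227 to 2.20 CPM, and within the affected groups libraries that are high in one gene tend to be high in the other.

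At day 9 the convergent gene was the 1 of 10 neighbours of the chromosome 5 gene to pass the genotype test, against 8.38% of all tested genes. The gene across from its start, from 55717232 to 55786797, had log2 fold changes of 0.15 ± 0.11 and -0.05 ± 0.11 at day 9 and day 14. The gene within the span of the convergent neighbour, from 55857791 to 55964700, had values of 0.00 ± 0.11 and 0.18 ± 0.11 and stood at 107 to 129 CPM in all groups. At day 14, 5 of the 10 neighbours passed, against 22.0% of all tested genes, 2 higher and 3 lower. Besides the convergent gene, the gene from 55231606 to 55455502 was higher in affected dogs than in controls, by 1.32 ± 0.34 (edgeR adjusted p = 0.0076). Its means at day 14 were 7.84 CPM in affected dogs and 3.15 CPM in controls, after 10.7 and 7.43 CPM at day 9. Of the 3 that were lower the gene from 56151140 to 56175436 differed most, at -0.92 ± 0.26 (edgeR adjusted p = 0.0135). Without control day 14 replicate 1 or 4 the number that passed was 3.

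The neighbours of the chromosome 9 gene did not all move in 1 direction. At day 9, 2 of 10 passed the test, both higher. They were the gene from 54009629 to 54015890, at 0.35 ± 0.10 on the log2 scale (edgeR adjusted p = 0.024), and the gene from 53117847 to 53261307, at 0.66 ± 0.19 (edgeR adjusted p = 0.0276). Leaving out control day 9 replicate 3 or 4 made this 0, and leaving out control day 9 replicate 2 or MPS VII day 9 replicate 3 made it 1. At day 14, 3 of 10 passed, 1 higher and 2 lower. The gene from 53672017 to 53676808 stood at 2.30 CPM ± 0.546 in controls (SD, n = 5) and was lower in affected dogs, at 0.734 CPM ± 0.330, which is -1.65 ± 0.33 on the log2 scale (edgeR adjusted p = 9.33e-04). The gene from 53875217 to 53962734 was lower in affected dogs than in controls of day 14, at -1.01 ± 0.16 (edgeR adjusted p = 9.29e-05). Its means in controls were 25.0 CPM at day 9 and 53.6 CPM at day 14, and in affected dogs 25.6 and 26.7 CPM. The gene that overlaps the 3′ end of the chromosome 9 gene on the same strand had log2 fold changes of 0.04 ± 0.16 and -0.10 ± 0.16. The next gene model upstream, 13.3 kb away with 98 exons, held 48 counts over the 20 libraries and was not tested.

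**Figure D4:**
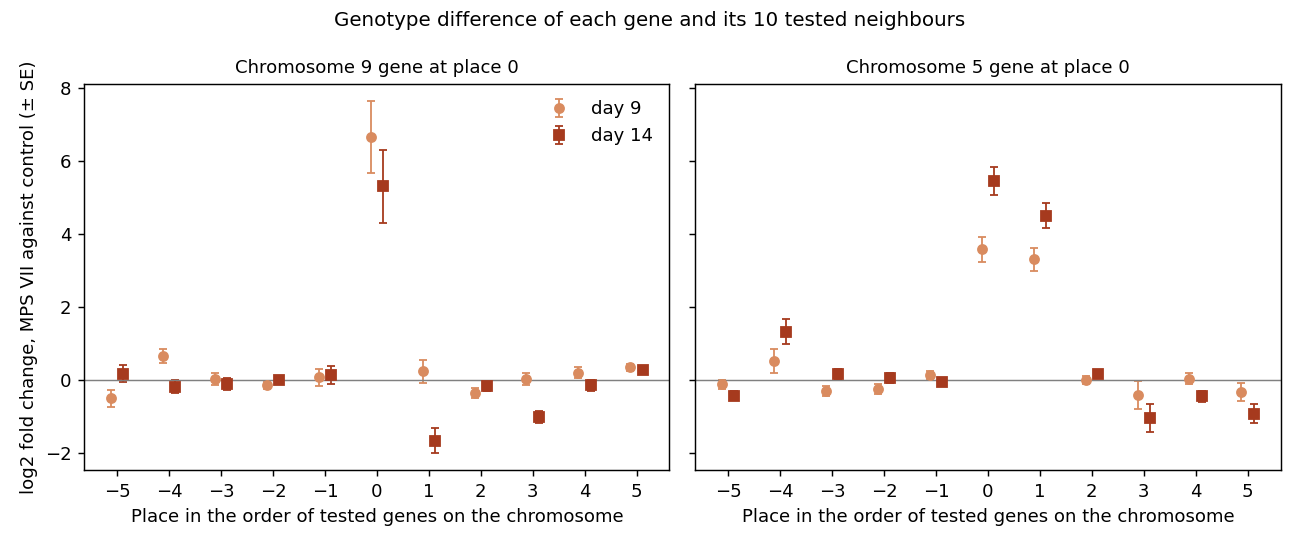
Log2 fold change of MPS VII against control at day 9 (circles) and day 14 (squares), with standard errors, for the chromosome 9 gene (left) and the chromosome 5 gene (right) at place 0 and their 5 tested neighbours on either side, in the order of their start on the chromosome. On the right the gene at place 1 stands at 3.31 and 4.51 beside the chromosome 5 gene at 3.59 and 5.45, while on the left the neighbours lie between -1.65 and 0.66.

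The pattern over the 20 libraries that was most like that of the chromosome 5 gene, among all tested genes, was that of its convergent neighbour. Likeness was measured as Pearson's r of log2 CPM and is given as a description, since the gap between genotypes is shared by all genes of these lists and sets most of it. The r was 0.985 with the neighbour. The next 4 genes lay elsewhere, at 8:1811972, 5:42178920, X:14994581 and 1:81645237 (chromosome and start), with r of 0.971 to 0.962. These 4 were well expressed in controls, at 13.2 to 104 CPM, and were higher in affected dogs by 0.96 to 2.26 on the log2 scale. For the chromosome 9 gene the 5 most alike were at 9:2521387, 25:48121499, 22:58196783, 24:32162033 and 25:50303570, with r of 0.965 to 0.957. Of these, the genes at 25:48121499 and 25:50303570 were under 2 CPM in both control groups too, and stood at 8.65 and 22.3 CPM in affected dogs of day 9 and at 6.61 and 16.3 CPM at day 14. The lists shared no gene.

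With group means removed, so that genotype and age no longer count, the 2 genes showed little likeness to each other. Their deviations had an r of 0.336 over 20 libraries, and 0.144 without MPS VII day 9 replicate 3. The chromosome 5 gene and its convergent neighbour had an r of 0.762 in the same terms, and 0.741 without that library. The 5 genes with the highest r to the chromosome 9 gene by deviations, at 32:32950116, 7:42373920, 6:57047786, 4:34630337 and 26:27856081, had r of 0.888 to 0.837, which were 0.675 to 0.779 without MPS VII day 9 replicate 3. The gene at 6:57047786 is the 1 of these that also passed the genotype test at both ages, with log2 fold changes of 1.01 (edgeR adjusted p = 0.0211) and 1.15 (edgeR adjusted p = 0.00377). For the chromosome 5 gene the 5 were at 6:17812840, 9:5830588, 14:40329127, 1:98881533 and 1:108658259, with r of 0.812 to 0.763, which were 0.736 to 0.803 without that library.

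MPS VII day 9 replicate 3, which held 298 CPM of the chromosome 9 gene, also differed in other genes. In it, 73 of the 14550 tested genes stood at least 8-fold above the median of the rest of the group, at 5 CPM or more, and 67 at least 8-fold below. In the other 19 libraries, 0 to 11 genes stood above and 0 to 5 below. The chromosome 9 gene was 15.1-fold above the rest there, which was 28th by fold and 5th by CPM among the 73. The chromosome 5 gene was 1.91-fold above. Of the 73 genes, 13.7% were called higher in affected dogs at day 14, against 11.3% of all tested genes. The group means of that comparison do not include this library, but its error does, since all 20 libraries shared 1 fit. The 13.7% is therefore not independent of this library. In MPS VII day 14 replicate 4 the chromosome 9 gene was 4.09-fold above the rest of its group, and 3 genes were at least 8-fold above, of which 1 was among the 73.

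**Figure D5:**
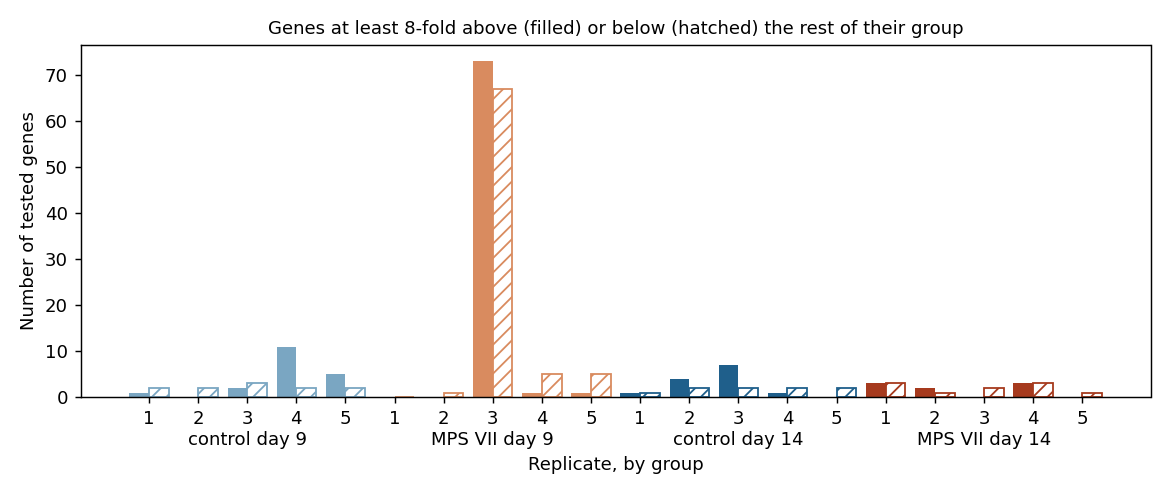
Number of tested genes at least 8-fold above (filled) or below (hatched) the median of the other 4 libraries of the group, for each library by group and replicate. MPS VII day 9 replicate 3 has 73 and 67 such genes, and no other library has more than 11.

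The limit of 2 CPM in both control groups was met by 2510 tested genes. Of these, 186 were called higher in affected dogs at day 9 and 262 at day 14, with 120 at both ages. Over all tested genes 6.18% and 11.3% were called higher at these ages. Tested genes had passed a filter on counts over all groups. A gene with hardly any counts in controls could therefore be tested only if affected libraries held enough counts. That favours higher calls among the 2510 genes, so their numbers cannot be weighed against the shares over all tested genes. There were 32 genes called at least 8-fold higher at both ages, and 29 of them were under the limit. The filter favours this number in the same way, and it is given as a description. Among the 29, the chromosome 9 gene was 5th by its median CPM per kb in affected dogs and the chromosome 5 gene 11th. The convergent neighbour of the chromosome 5 gene was also among the 29. Among these 32 genes, those nearest under the limit by the higher of the control means were the genes at 25:50303570 with 1.97 CPM and at 9:48647332 with 1.96 CPM. Those nearest over it were the genes at 14:36918913 with 9.24 CPM and at 2:84877860 with 16.4 CPM. The higher control means of the 2 genes themselves were 0.7505 CPM and 1.25 CPM.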

How the data were processed

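For 20 libraries and 24580 Ensembl genes the authors deposited raw counts, together with exon positions and summed exon lengths in bases, per the file headers. Paired 100-base reads from a stranded mRNA kit were aligned to CanFam3.1 and Ensembl build 77 (labels' protocols). STAR 2.4.0j, HTSeq, edgeR, bcl2fastq and CASAVA 1.8.2 are named, without their roles, per the submitters' processing notes. How strand, mates and reads matching several genes were counted is not stated in those sources.

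The count model was that of edgeR 4.0.16 (R 4.3.3). Genes kept by filterByExpr on the 4 groups numbered 14550. Libraries were scaled by TMM, and 1 fit over all 20 libraries (robust glmQLFit, glmQLFTest) gave each comparison, with Benjamini-Hochberg adjustment over all tested genes and a threshold of 0.05. Standard errors were taken as the log2 fold change over the root of the F statistic. Log2 CPM used a prior count of 2. DESeq2 1.42.0 served as an alternative. The edgeR test was checked on simulated counts.

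Each library is a separate animal, per the labels. Replicates were numbered in the order of the labels, and no number pairs animals. Among 40 pairs of libraries within groups, none agreed within sampling noise (chi-square per gene 17.7 to 649).

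Genes named are the 2 chosen ones, 5 tested neighbours on either side, the 5 most similar by each measure, and those on either side of the 2 CPM limit. For the 2 genes, genotype differences and the difference of the age change are descriptions, although a test was planned for the latter. Members, lists and tests were chosen with earlier results of these data known. Sequences are not shown, since no sequence of this build was used here.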

Additional observations from a re-analysis of the deposited data

Results flagged for a closer look

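The chromosome 9 gene stood at 298 CPM in MPS VII day 9 replicate 3, where the gap to the next library was 95.1% of the range of its group. It stood at 54.8 CPM in MPS VII day 14 replicate 4, where the gap was 83.4% of the range. Both are past Dixon's critical value of 0.71 for 5 libraries, which holds for normally distributed values. The gaps were taken on CPM. On the log scale a high library stands out less, and the gaps were not computed there. In all, 12 groups of libraries were looked at over 3 genes, and with normally distributed values chance flags about 1 group in 20. The age change of the chromosome 5 gene was -1.58 on the log2 scale in controls and 0.29 in MPS VII dogs, a difference of 1.86 ± 0.51 (SE). It is built from the values that chose the gene and is given as a description.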

How the results depend on the processing

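Over 458 recomputed values, 401 kept their direction and side of the threshold or stayed within the spread. No paired analysis was possible because the labels give no litter or shared replicate number. For the chromosome 5 gene, the difference of the age change, given as a description, was 1.85 under median-ratio scaling, 1.87 with no filter, 1.85 with counts halved, 1.88 by DESeq2, 1.86 without robust estimation, 1.94 without both libraries that stood apart, and 1.59 to 2.22 with 1 library left out. For the chromosome 9 gene, leaving out 1 library gave age changes in MPS VII of -2.49 to 0.055, differences of the age change of -2.01 to 0.54 and genotype differences at day 9 of 4.77 to 6.92, and 4.77 without both libraries that stood apart, which was chosen after seeing the data. DESeq2 gave no adjusted p for its age changes. The age change of the convergent neighbour in MPS VII dogs ran from -0.22 to 0.070. Of the neighbours of the chromosome 9 gene, 1 passed at day 9 with no filter or without both libraries, 0 with only the groups of that age in the fit, and 0 to 3 with 1 library left out. For the chromosome 5 gene, 3 to 6 passed at day 14 with 1 library left out. Of the 5 genes most like the chromosome 9 gene by level, 2 were among the first 5 by Spearman's rho and 3 without MPS VII day 9 replicate 3. For the chromosome 5 gene these numbers were 3 and 4. By deviations, 1 of 5 remained with a prior count of 0.5 for the chromosome 9 gene and 1 of 5 by Spearman's rho for the chromosome 5 gene, and 2 of 5 without that library for each. At 16-fold, 25 genes stood above the rest in MPS VII day 9 replicate 3. Over all genes, calls for the difference of the age change numbered 474, 938 by DESeq2 and 199 to 759 with 1 library left out. Calls for genotype at day 9 numbered 1220, and 711 with only those groups in the fit, and for age in MPS VII 3297 and 1466. The difference of the age change uses all groups, so a fit on fewer groups was not run for it. The cause of these changes was not tested. Control levels rest on 0 to 38 counts per library, so depth limits how far below 2 CPM the genes can be ranked.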
